A study of Gallus gallus with 4 samples.

Results

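Mitochondrial enzymes are described here in ovaries of the Ningdu Yellow chicken, a breed with one sub-breed of early and one of late sexual maturity. A gene was counted as a mitochondrial enzyme where the deposited gene ontology (GO) tables placed it under both mitochondrion and catalytic activity, and under none of 8 further terms. These 8 terms were structural constituent of ribosome, monooxygenase activity, immune response, cell adhesion, extracellular matrix, extracellular space, transmembrane signaling receptor activity and calcium ion binding. The rule found 497 genes among the 11884 genes named in the tables, and among the 17934 genes of the population of the GO analysis. Before the 8 terms were taken out, 511 genes were under both terms.

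The study sequenced 4 groups. Those of the sub-breed that matures early were P-F-O2, ovaries at 103 days from laying hens, and P-F-O1, ovaries at 32 days from pre-laying hens. Those of the sub-breed that matures late were L-F-O2, ovaries at 153 days, and L-F-O1, ovaries at 32 days from pre-laying hens. P-F-O2 against P-F-O1 is called the early comparison, and L-F-O2 against L-F-O1 the late comparison. Descriptions of L-F-O2 differ on whether its hens were laying, and only its name and age were relied on. Each group was 1 library, an equal mix of RNA from 5 ovaries, and no difference between groups has a replicate check. The older ovaries also differed in age between the sub-breeds, so sub-breed and age of the older hens cannot be told apart. A mixed library of ovaries cannot tell fewer cells of a type from less RNA per cell.

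Mitochondria oxidise pyruvate, fatty acids and amino acids and pass the electrons along the respiratory chain of their inner membrane, which drives the synthesis of ATP. They also hold enzymes of the urea cycle, of heme and of one-carbon metabolism, and they keep their own ribosomes and tRNAs. In the ovary, mitochondria pass from the oocyte to the embryo, and in steroid-making follicle cells the first step from cholesterol to the sex steroids takes place on their inner membrane. That step is carried out by a cytochrome P450, a monooxygenase, and such genes were left out by the rule.

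What the tables give for a gene is whether it was called differentially expressed between the older and the younger library. A call rested on criteria set by the authors, a fold change with a floor on expression or a p-value. It carries no direction and no level. The population of the GO analysis is larger than the set of genes the paper reports as detected. Read totals, expression values and the size of a change were not used here, and the label of the tissue could not be set against marker genes. The tables also leave out GO terms whose adjusted p-value in the authors' own test reached its ceiling, so whether a term is listed at all depends on the calls, and that holds for both terms that chose these genes. The shares below are therefore a description, with no test.

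A smaller share of mitochondrial enzymes than of genes as a whole was called in both comparisons. In P-F-O2 against P-F-O1, 79 of the 497 mitochondrial enzymes (15.9%) were called, against 28.1% of the population and 26.9% of all genes named in the tables. In L-F-O2 against L-F-O1, 50 of the 497 (10.1%) were called, against 23.2% of the population and 22.0% of the named genes. Among the 11387 named genes that are not mitochondrial enzymes, 3123 (27.4%) were called in the early comparison and 2570 (22.6%) in the late comparison. A call was read only from the terms listed for that comparison. A gene named for the other comparison alone therefore counted as uncalled, and how many such genes there are was not examined. All 497 mitochondrial enzymes were named for both comparisons. In all, 407 mitochondrial enzymes were called in neither comparison.

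Mitochondrial genes that are not enzymes had shares like those of the enzymes, and enzymes outside the mitochondrion had higher ones. The 395 mitochondrial genes without catalytic activity had 61 calls (15.4%) in the early comparison and 46 (11.6%) in the late comparison. Of the 3863 catalytic genes outside the mitochondrion, 991 (25.7%) were called in the early and 806 (20.9%) in the late comparison. Taking the 8 terms out of this last group as well left 3451 genes, with 808 (23.4%) and 634 (18.4%) called. The 41 mitochondrial genes under structural constituent of ribosome, the term of the proteins that build ribosomes, had 6 calls (14.6%) in the early and 3 (7.32%) in the late comparison.

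**Figure D1:**
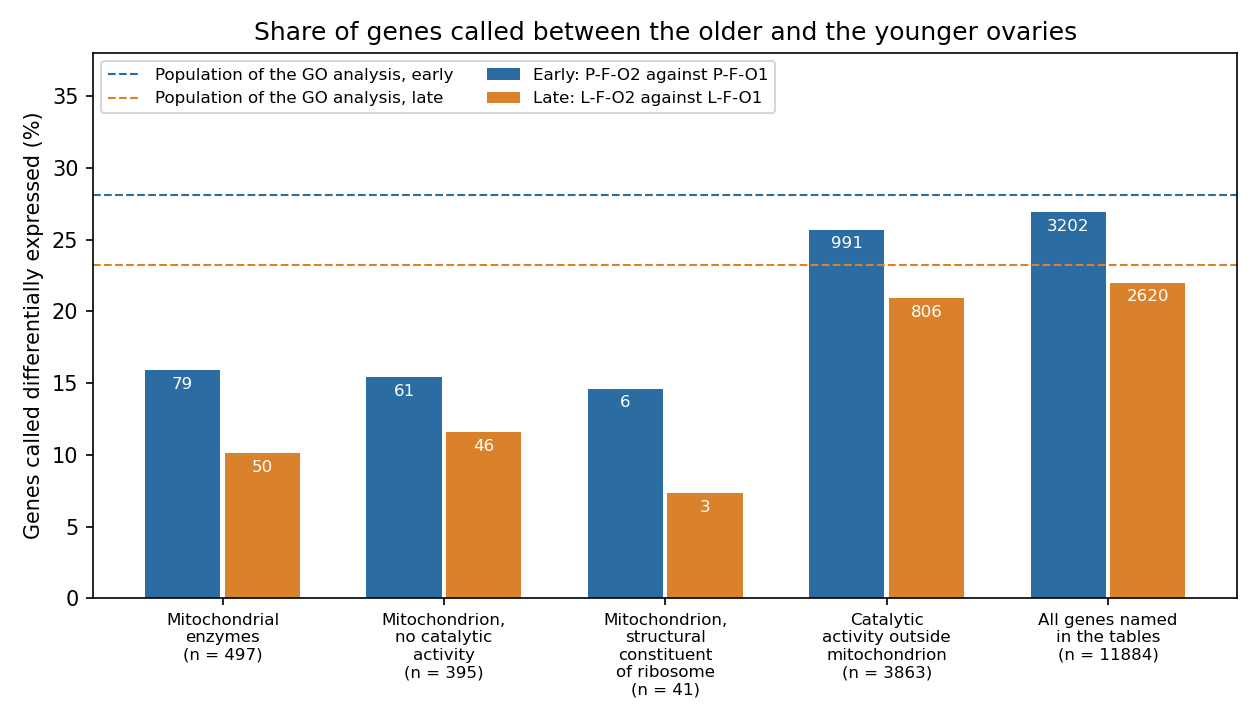
Share of genes called differentially expressed (percent, vertical axis) for mitochondrial enzymes and 4 other sets of genes, with blue bars for P-F-O2 against P-F-O1, orange bars for L-F-O2 against L-F-O1, the number of called genes in each bar, and dashed lines at the shares of the population (28.1% and 23.2%). The 3 mitochondrial sets lie between 14.6% and 15.9% in the early and between 7.32% and 11.6% in the late comparison, under both lines.

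The comparisons share no library, so the genes called in both can be counted. Per the paper, the older library had more mapped reads in both comparisons, and whether this bears on the overlap was not tested. Of the mitochondrial enzymes, 39 were called in both comparisons, which is 49.4% of those called in the early and 78.0% of those called in the late comparison. A further 40 were called in the early comparison alone and 11 in the late comparison alone. Among the other named genes, the 1998 called in both made up 64.0% of the early calls and 77.7% of the late calls. The limit given above on where calls were read holds for these genes and not for the enzymes. The number of late calls came to 63.3% of the number of early calls for mitochondrial enzymes and to 82.3% for the other named genes. Calls in the early comparison without a call in the late comparison were thus a larger part of the list than for the other named genes, and this difference was not tested. Other mitochondrial genes were mixed in this respect. For the 41 mitochondrial genes under structural constituent of ribosome, calls in both were 33.3% of 6 early calls, and late calls came to 50.0% of early calls. For the 395 mitochondrial genes without catalytic activity, these values were 63.9% and 75.4%. The first was near the 64.0% of the other named genes, and the second was below their 82.3%. The sets of 41 and of 395 genes overlap.

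Enzymes assigned to a compartment of the organelle had shares near those of the other mitochondrial enzymes. Mitochondrial part, the term for gene products assigned to a compartment of the organelle, held 134 of the mitochondrial enzymes, of which 19 (14.2%) were called in the early and 14 (10.4%) in the late comparison. The 363 outside it had 60 (16.5%) and 36 (9.92%). Of the 83 enzymes of the inner membrane, the site of the respiratory chain, 13 (15.7%) were called in the early and 9 (10.8%) in the late comparison, and the 82 other genes of that term had shares of 13.4% and 7.32%. The GO annotation decides this group. Its early calls include GPAM and ABCD3, described below as genes of the outer membrane and of peroxisomes, respectively.

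Enzymes under ion transmembrane transporter activity had the highest early share of these groups. This term held 33 mitochondrial enzymes, of which 11 (33.3%) were called in the early and 7 (21.2%) in the late comparison. It also takes in subunits of respiratory chain complexes, so a gene under it need not move ions by itself. All 7 late calls were among the 11 early ones. The 549 other genes of this term had shares of 35.7% in the early and 31.3% in the late comparison. The split was then followed within the inner membrane, a step chosen after these values were seen. The 27 inner membrane enzymes with transporter activity had 8 calls (29.6%) in the early and 5 (18.5%) in the late comparison, whereas the 56 without it had 5 (8.93%) and 4 (7.14%). GPAM and ABCD3 are among the early calls of these 56. With all 33 enzymes of the transporter term set aside, the remaining 464 had 68 calls (14.7%) and 43 calls (9.27%).

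Enzymes that bind ATP, nucleotides or nucleic acids had shares below those of mitochondrial enzymes as a whole, and those that bind RNA did so in the early comparison only. Of 120 enzymes that bind ATP, 14 (11.7%) were called in the early and 8 (6.67%) in the late comparison, against 24.3% and 18.6% of the 1020 other ATP-binding genes. Nucleotide binding as a whole held 172 enzymes, with 22 (12.8%) and 15 (8.72%) called, and small molecule binding held 183, with 23 (12.6%) and 15 (8.20%). Nucleic acid binding held 49 enzymes, of which 4 (8.16%) and 3 (6.12%) were called, against 23.8% and 18.5% of the 1922 other genes of the term. RNA binding held 22 enzymes, with 3 calls (13.6%) in each comparison, against 19.1% and 13.7% of the 335 other RNA-binding genes.

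Ligases join molecules at the expense of ATP and include the enzymes that load tRNAs with amino acids. Of 47 mitochondrial ligases, 6 (12.8%) were called in the early and 2 (4.26%) in the late comparison. The tRNA metabolic process held 30 enzymes, with 4 calls (13.3%) in the early comparison and 1 (3.33%) in the late comparison, the lowest late share of any group with at least 20 mitochondrial enzymes. The other genes of both terms also lay under the population, with shares of 16.5% and 11.6% for ligases and of 17.5% and 7.94% for tRNA metabolism.

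Zinc-binding enzymes were the only one of these groups with more late than early calls. Of 32 such enzymes, 6 (18.8%) were called in the early and 7 (21.9%) in the late comparison, with 5 called in both. The 1142 other zinc-binding genes had shares of 24.3% and 17.8%. One call fewer would level these counts. Metal ion binding, with 75 enzymes, went the other way, with 13 (17.3%) called in the early and 6 in the late comparison. Its list does not hold all the zinc-binding enzymes, which had 7 late calls.

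Enzymes of catabolic process, which break nutrients and cell parts down, had shares somewhat above those of mitochondrial enzymes as a whole. Of 111, 21 (18.9%) were called in the early and 15 (13.5%) in the late comparison, against 20.6% and 18.3% of the 683 other catabolic genes. Cellular metabolic process took in 339 of the enzymes, with 60 (17.7%) and 39 (11.5%) called. Transferases numbered 145, with 23 (15.9%) and 16 (11.0%), and enzymes of cellular protein metabolic process numbered 73, with 11 (15.1%) and 7 (9.59%). The 63 enzymes of protein complexes had 13 early calls (20.6%) and 6 late calls (9.52%), and all 6 were among the 13.

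The gap to other genes was wide for several terms that reach beyond mitochondria. Of 136 mitochondrial enzymes placed in a membrane, 21 (15.4%) were called in the early and 15 (11.0%) in the late comparison, against 33.3% and 27.3% of the 2600 other membrane genes. Of 48 enzymes under developmental process, 6 (12.5%) and 4 (8.33%) were called, against 33.9% and 30.9% of the 1685 other genes. The 79 enzymes that were also placed in the nucleus had 8 calls (10.1%) and 6 calls (7.59%), against 23.1% and 18.4% of 2438 other nuclear genes. At the plasma membrane, 22 enzymes had the same 4 calls (18.2%) in both comparisons.

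Over the 61 listed GO terms that held at least 20 mitochondrial enzymes, their early share ran from 8.16% to 33.3% and their late share from 3.33% to 21.9%. It was below that of the term's other genes in 58 terms in the early and in 56 in the late comparison, and below the share of the population in 59 and 61. The early exceptions were organelle inner membrane, mitochondrial inner membrane and establishment of localization in cell. The late exceptions were these inner membrane terms, mitochondrial membrane, mitochondrial part and zinc ion binding. Where the other genes are mitochondrial too, the gap was thus small or reversed. For mitochondrial part, the shares were 14.2% against 16.7% in the early and 10.4% against 8.64% in the late comparison. Many of these terms hold nearly the same genes, 10 of the listed terms hold every mitochondrial enzyme, and 40 of the enzymes are in no term of this size. Whether any of these terms is listed depends on the calls, and the low share of the enzymes as a whole carries into each term. The counts of terms are therefore no further evidence of a low share. Receptor binding held 3 of the enzymes, with 1 called in both comparisons.

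**Figure D2:**
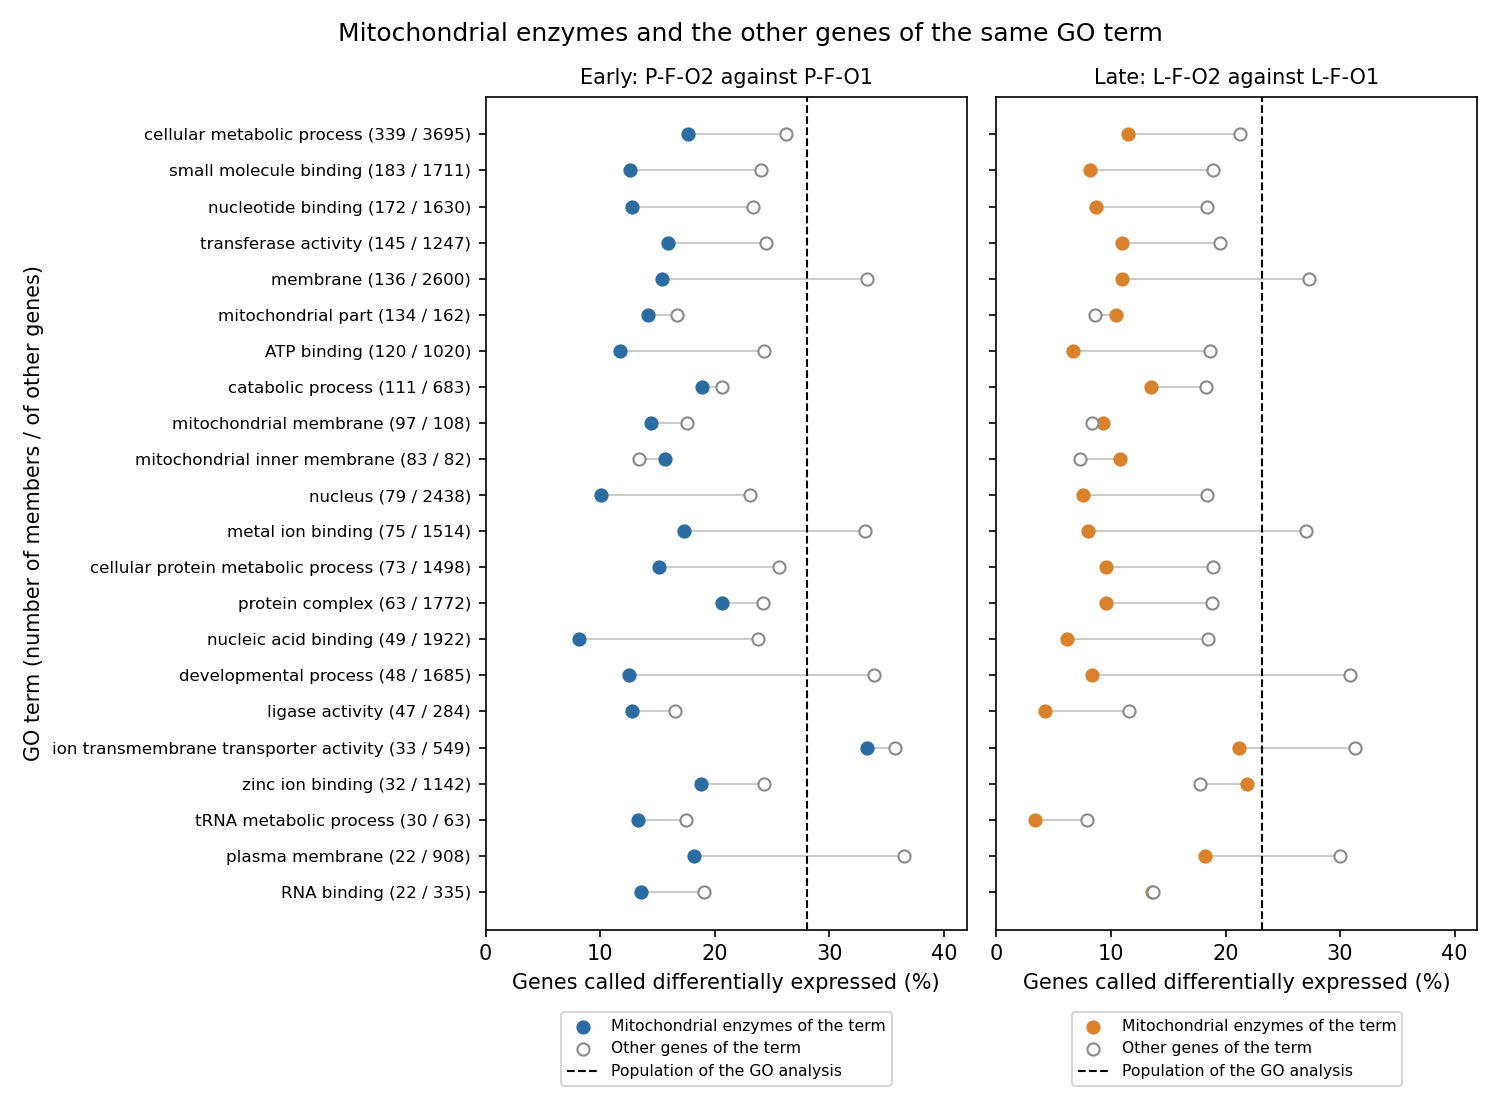
Share of genes called (percent, horizontal axis) for mitochondrial enzymes (filled points) and for the other genes of the same GO term (open points), by term, with the number of enzymes and of other genes in brackets, P-F-O2 against P-F-O1 on the left and L-F-O2 against L-F-O1 on the right, and the share of the population as a dashed line. Filled points lie left of the open ones in most terms, that of ion transmembrane transporter activity (33.3%) is the only filled point right of the line in the early comparison, and zinc ion binding (21.9%) has the highest late share.

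Of the 90 mitochondrial enzymes called in either comparison, 41 could be named, 18 called in both and 23 in the early comparison alone. Names came from the gene list at hand, which covers early calls over a stretch of gene identifiers with 270 of the enzymes, so the 11 enzymes called in the late comparison alone have none. For the same reason uncalled enzymes are unnamed, and no share can be given for a role. Roles were assigned after the calls were known.

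The respiratory chain had 5 named genes, of which 4 were called in both comparisons, against 18 of all 41 named genes. Nothing is read from this count, since only genes with an early call could be named and roles came after the calls. NDUFS1 (ENSGALG00000008606), an iron-sulfur subunit of complex I, takes part in the transfer of electrons from NADH. ENSGALG00000000629, described as subunit 7 of the alpha subcomplex of NADH dehydrogenase, is an accessory part of the same complex. UQCR10 (ENSGALG00000008066) and UQCR11 (ENSGALG00000001096) are small subunits of complex III, which passes electrons from ubiquinol to cytochrome c. COX6A1 (ENSGALG00000007205), a subunit of cytochrome c oxidase, the complex that hands electrons to oxygen, was called in the early comparison alone. UQCR10, UQCR11 and COX6A1 were also under ion transmembrane transporter activity.

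The 5 named genes of citrate, pyruvate and redox metabolism were all called in the early comparison alone, as were 23 of all 41 named genes. Only genes with an early call could be named and roles came after the calls, so nothing is read from this count. PDP2 (ENSGALG00000005146) removes the phosphate that holds pyruvate dehydrogenase inactive, and ALDH2 (ENSGALG00000004725) oxidises acetaldehyde and other aldehydes in the mitochondrial matrix. AIFM3 (ENSGALG00000007720) is a flavoprotein related to apoptosis-inducing factor. ACO1 (ENSGALG00000002162), an aconitase that also binds iron-responsive elements of mRNA, and IDH1 (ENSGALG00000008818), an isocitrate dehydrogenase that makes NADPH, are best known from the cytosol.

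Amino acid and nitrogen metabolism was the largest named role, with 8 genes, of which 3 were called in both comparisons. These were TAT (ENSGALG00000000893), which starts the breakdown of tyrosine, GPT2 (ENSGALG00000004158), which exchanges the amino group between alanine and glutamate, and CPS1 (ENSGALG00000002944), which makes carbamoyl phosphate for the urea cycle of mammals. The other 5 were called in the early comparison alone. GLUL (ENSGALG00000003678) is glutamine synthetase, which binds ammonia to glutamate, and SARDH (ENSGALG00000002855) oxidises sarcosine to glycine. ABAT (ENSGALG00000007334) breaks down the transmitter GABA, and CCBL2 (ENSGALG00000006188) is an aminotransferase of kynurenine. ADC (ENSGALG00000003614) carries the symbol AZIN2 in RefSeq, an antizyme inhibitor of polyamine metabolism.

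Lipid and acyl-CoA metabolism had 7 named genes, of which 3 were called in both comparisons. MECR (ENSGALG00000001426) carries out the last reduction in the fatty acid synthesis of mitochondria, ACOT8 (ENSGALG00000006842) is an acyl-CoA thioesterase known from peroxisomes, and PLA2G15 (ENSGALG00000000771) is a phospholipase known from lysosomes. In the early comparison alone, calls fell on ACSS1 (ENSGALG00000008632), which makes acetyl-CoA from acetate, and on GPAM (ENSGALG00000008795), the acyltransferase of the outer membrane that opens glycerolipid synthesis. ABHD6 (ENSGALG00000005696), a monoacylglycerol lipase, and ABCD3 (ENSGALG00000005647), a transporter of fatty acids into peroxisomes, were called in the same way.

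Nucleotides, tRNA and translation had 6 named genes, of which 4 were called in both comparisons. NME2 (ENSGALG00000002932) is a nucleoside diphosphate kinase, and NT5M (ENSGALG00000004842) removes phosphate from deoxyribonucleotides inside mitochondria. DUS2L (ENSGALG00000003407) reduces uridines of tRNA to dihydrouridine, and EEFSEC (ENSGALG00000005913) is the elongation factor that brings selenocysteine to the ribosome. GTPBP5 (ENSGALG00000005164), a GTPase of the mitochondrial ribosome, and MTFMT (ENSGALG00000007353), which formylates the methionyl-tRNA that starts mitochondrial translation, were called in the early comparison alone.

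Protein and membrane upkeep had 3 named genes. OPA1 (ENSGALG00000007150), a GTPase that fuses inner membranes and shapes cristae, and PPIF (ENSGALG00000004809), the cyclophilin that regulates the permeability transition pore, were called in both comparisons. PITRM1 (ENSGALG00000007036), a zinc-binding protease that clears the targeting peptides of imported proteins, was called in the early comparison alone.

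The last 7 named genes had other roles or none that could be assigned. GMPPB (ENSGALG00000002500), which makes GDP-mannose, and CTSA (ENSGALG00000006876), a carboxypeptidase of lysosomes, were called in both comparisons. Called in the early comparison alone were RAB8B (ENSGALG00000003487), a small GTPase of vesicle traffic, PAK7 (ENSGALG00000008947), a kinase with the RefSeq symbol PAK5, COMTD1 (ENSGALG00000005000), a methyltransferase-like protein, a 5-hydroxyisourate hydrolase (ENSGALG00000000549), which acts in the breakdown of uric acid in other animals, and GGA.13329 (ENSGALG00000004223), for which no role is given here.

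**Figure D3:**
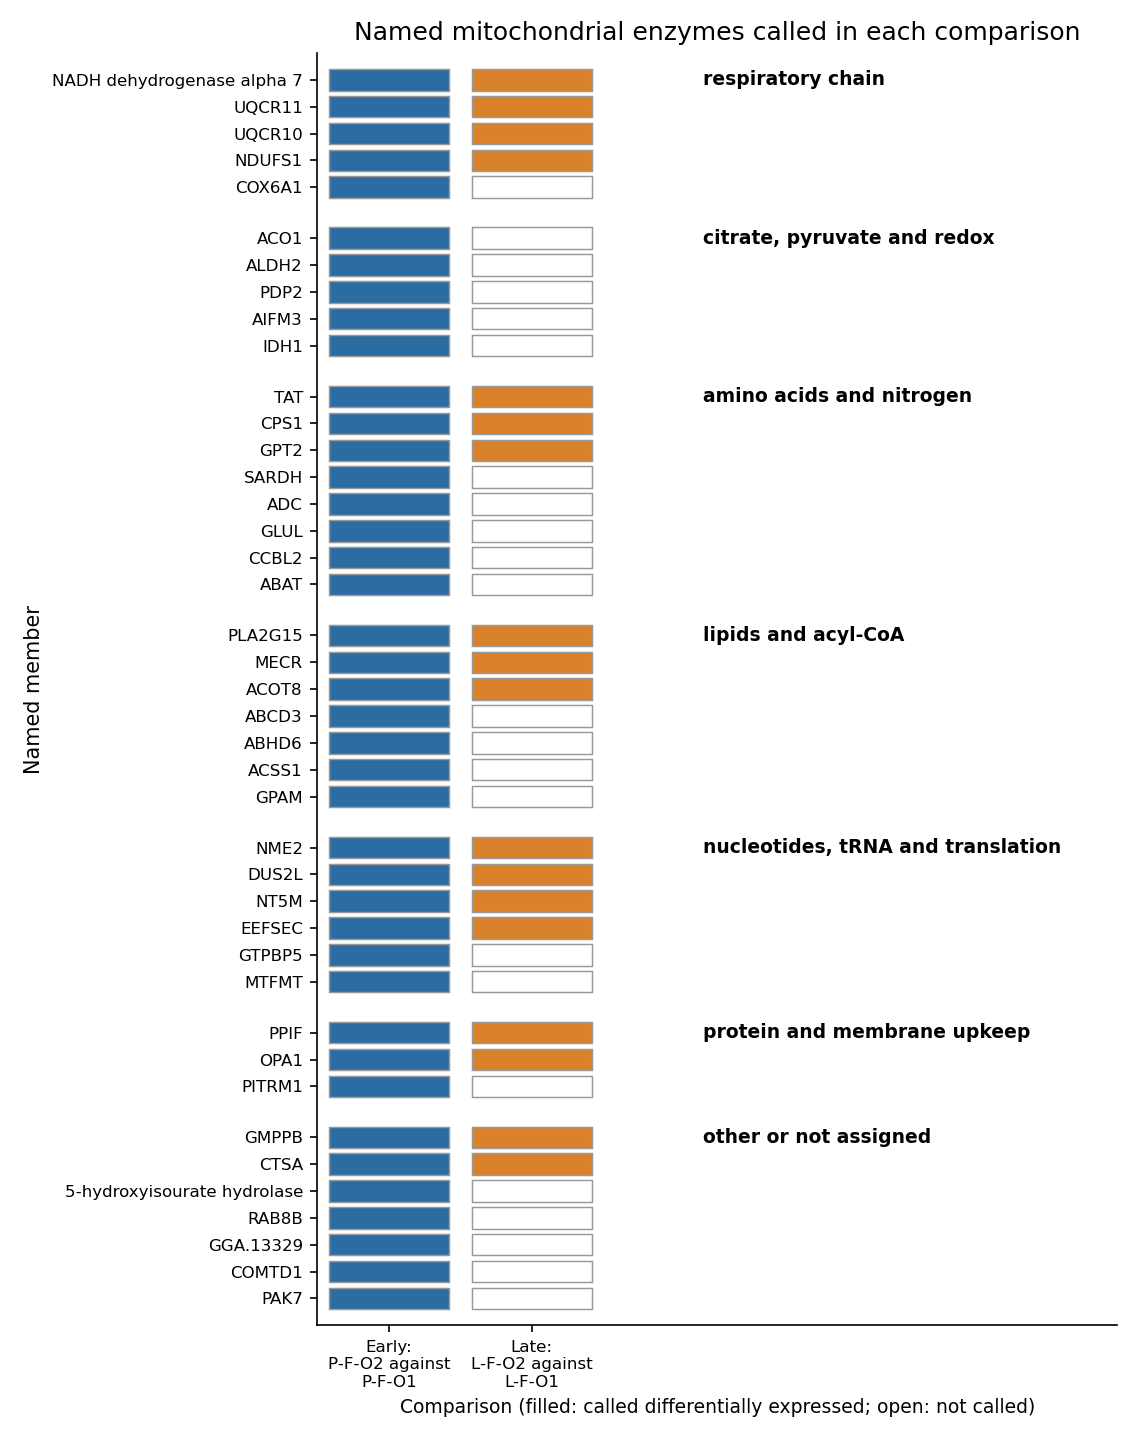
The 41 named mitochondrial enzymes, grouped by role down the page, with a filled box where a gene was called and an open box where it was not, in P-F-O2 against P-F-O1 (left, blue) and in L-F-O2 against L-F-O1 (right, orange). Of the 5 respiratory chain genes 4 are filled in both columns, and none of the 5 genes of citrate, pyruvate and redox metabolism is filled in the right column. Of all 41, 18 are filled in both columns and 23 in the left column alone, and roles were assigned after the calls were known.

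The label therefore rests on the GO annotation and is a broad one. Of the 41 named enzymes, 10 were under mitochondrial part, namely NDUFS1, the described NADH dehydrogenase subunit, UQCR10, UQCR11, COX6A1, CPS1, ABCD3, OPA1, ACSS1 and GPAM. Named genes that are best known from other places in the cell include ABCD3, ACO1, IDH1, PLA2G15, CTSA, ACOT8, RAB8B and PAK7. The GO annotation puts them under mitochondrion as well, and ABCD3 also under mitochondrial part and in the inner membrane. GPAM, described above as an acyltransferase of the outer membrane, was placed in the inner membrane too. This list is not complete, and the place of each named gene in the cell was not examined.

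The 11 enzymes called in the late comparison alone are known only by their terms. Of these, 9 were under cellular metabolic process, which holds 339 of the 497 enzymes, 5 under nucleotide binding (172 of 497), and 3 under mitochondrial part (134 of 497). These counts are near what the terms hold of all mitochondrial enzymes, and nothing is read from them. ENSGALG00000002020 and ENSGALG00000007826 were placed in the inner membrane. Both ENSGALG00000002688 and ENSGALG00000007141 were under ATP binding and transferase activity.

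The KEGG tables list only called genes and cover few of the enzymes. Of the genes they name, 176 have identifiers up to ENSGALG00000002896 and 5 have later ones. The stretch up to this identifier holds 67 mitochondrial enzymes with 11 called. Of these 11, 9 were in a KEGG pathway, against 0 of the 79 called enzymes with later identifiers. The pathway counts below therefore speak for this stretch and not for whole pathways, and a called enzyme that is missing from a pathway says nothing about it. They name 156 genes in the early and 132 in the late comparison, among them 7 and 8 mitochondrial enzymes, 9 in all. In oxidative phosphorylation, 5 of 15 background genes were called in the early and 2 of 15 in the late comparison. UQCR11 and the described NADH dehydrogenase subunit were 2 of the 5 early genes and were both of the late genes.

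In metabolic pathways, the widest entry, 33 of 133 background genes were called in the early and 25 of 133 in the late comparison, with 6 mitochondrial enzymes each time. TAT, UQCR11, MECR, GMPPB and the described NADH dehydrogenase subunit were printed for both. The hydrolase of 5-hydroxyisourate was printed for the early comparison alone, and ENSGALG00000002020 for the late comparison alone. ENSGALG00000002020 was also 1 of 2 called genes of arginine and proline metabolism and 1 of 3 of alanine, aspartate and glutamate metabolism in the late comparison, each with 5 background genes. Of the other pathways with a mitochondrial enzyme, TAT stood in tyrosine metabolism (2 and 2 of 5 called) and in cysteine and methionine metabolism (4 and 3 of 9), and PLA2G15 in the lysosome pathway (5 and 6 of 15).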

How the data were processed

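RNA of 4 libraries was sequenced. Per the study's methods, the authors used SeqPrep and Sickle for trimming, TopHat for alignment to galGal4 and Cuffdiff for the calls, and versions are not given in the sources used here. The deposited GO tables (Goatools) and KEGG tables (KOBAS) hold counts of called and of background genes with their identifiers. They also hold the authors' p-values and adjusted p-values, which were not used. They hold no value per library, so normalization and direction could not be examined. Read totals are given in the paper and were not used. In both comparisons the older library had more mapped reads and a lower percentage of reads mapped. Depth, mapping and age of the hens therefore cannot be told apart, and what depth did to the calls was not tested. Gene names came from the annotation columns of a supplementary gene list, and none of its expression values is given. Of the 41 named genes, 34 had a symbol or synonym in RefSeq (GRCg7b), from which no coordinates were taken.

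Python 3.11.15, scipy 1.17.1 and matplotlib 3.10.9 were used to count called genes per set. The 44 identifiers broken across lines in the late GO table were completed from intact ones, after a test on simulated data. No test was made, because each condition had 1 library. An alternative was set against the 95% Wilson interval of the share over genes, which covers counting error only. The text names called enzymes that have a name, those called in both comparisons first, up to 30. The other 11 (ABHD6, CCBL2, PITRM1, COX6A1, ABAT, MTFMT, AIFM3, ACSS1, GPAM, IDH1 and PAK7) were added after their calls were seen. The genes, terms and lists were chosen with earlier results of these data known.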

Additional observations from a re-analysis of the deposited data

How the results depend on the processing

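The shares of mitochondrial enzymes called, 15.9% in the early and 10.1% in the late comparison, lay within their own 95% Wilson intervals (12.9% to 19.4% and 7.71% to 13.0%) under all 5 alternatives. They were 16.4% and 10.6% of 511 genes with the 8 terms kept in, a list that holds all 497, and 16.1% and 11.4% of 149 genes with mitochondrial part in place of mitochondrion. Either GO table alone and dropping the broken identifiers gave the same 497 genes with the same calls, so the shares could not move there. The alternatives share most of their genes and the intervals treat genes as independent, so staying within them is no independent check. The number called in both comparisons was 43 with the 8 terms kept in and 13 with mitochondrial part, a shorter list by construction, against 39. The share over all genes was 26.9% in the early and 22.0% in the late comparison over genes named in the tables, against 28.1% and 23.2% of the population. Both lay outside the 95% Wilson intervals of the population shares (27.4% to 28.7% and 22.6% to 23.8%), so this share counted as moved. These intervals are narrow because the population holds many genes, and the named genes are part of it. Lying inside or outside an interval therefore does not rank how stable the shares are. No paired analysis was possible because each condition had 1 library and no result comes from a test of samples. For the same reason no library could be left out. Low levels could not be told from unchanged levels among the uncalled enzymes, since the tables give neither.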

Other observations

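The rule left out 14 genes under both mitochondrion and catalytic activity. They had 5 calls (35.7%) in the early and 4 (28.6%) in the late comparison, against 28.1% and 23.2% of the population. Of these genes, 4 were called in both, and nothing is read from counts this small. Of the 6 under monooxygenase activity, the class of the steroid-making cytochromes P450, 3 were called in the early and 2 in the late comparison. The gene under immune response was called in both comparisons, as was 1 of the 2 under cell adhesion. The 2 under structural constituent of ribosome, the 2 under calcium ion binding and the 1 under transmembrane signaling receptor activity were called in neither, and extracellular matrix and extracellular space held none.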
